A study of Mus musculus with 8 samples.

Results

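The Usher genes analysed here were the 9 genes Adgrv1, Pcdh15, Cdh23, Myo7a, Ush1c, Ush1g, Whrn, Clrn1 and Pdzd7, taken by symbol from 43472 symbols listed in the count tables. Of these, 8 were found under the symbol itself and 1, Adgrv1, under its older symbol Gpr98. The rule used these symbols and no measured value, but the list was drawn up with earlier results of these data known. The RNA was that of neural retinas of 4 Mfp2-/- mice and 4 control mice, of which 3 were Mfp2+/+ and 1, control replicate 2, was Mfp2+/-. All mice were on a C57BL/6J background and 3 weeks old (postnatal day 21), and each library pooled both retinas of 1 mouse. Mfp2-/- mice lack multifunctional protein 2, the central enzyme of peroxisomal β-oxidation, in all tissues. A change in their retina therefore cannot be told apart from an effect of the deficiency elsewhere in the body.

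Usher syndrome combines inherited deafness with retinitis pigmentosa, a progressive loss of photoreceptors. Its proteins bind one another. In the inner ear, cadherin 23 and protocadherin 15 form the tip links that join the stereocilia of hair cells. Adgrv1, whirlin and Pdzd7 build the ankle links at the base of these stereocilia. The links are tied to actin by the scaffolds harmonin and SANS and by the motor myosin VIIa. In photoreceptors the same proteins are found at the synapse and around the connecting cilium, where Adgrv1 and whirlin form a belt at the periciliary membrane.

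In 3 weeks-old Mfp2-/- retinas the Usher genes did not move as a block. Pcdh15, Adgrv1 and Whrn fell, Clrn1 rose and Myo7a did not pass the test. Cdh23, Ush1c, Ush1g and Pdzd7 had too few reads to pass the filter for low counts and were left out of the test. Fewer cells of a type and less RNA per cell cannot be told apart in these bulk retinas. The unit is CPM, a gene's share of all counts in genes on edgeR's scale with TMM factors, where 1 count was worth 0.336 to 0.508 CPM in Mfp2-/- and 0.323 to 0.452 CPM in control libraries. The libraries read the 3′ ends of transcripts, so CPM does not grow with transcript length and levels of different genes can be set side by side as tags. The test was edgeR's quasi-likelihood test over 12516 genes with Benjamini-Hochberg adjustment, and a gene was called at an adjusted p under 0.05. Over all genes tested 27.0% were called, 13.8% higher and 13.2% lower in Mfp2-/- retinas. Among the 5 Usher genes tested, 3 were called lower and 1 higher, with a median log2 fold change of -1.33, against a median of -0.0039 over all genes tested. In 4 of the 5 the Mfp2-/- and control libraries did not overlap, as was so in 30.9% of all genes tested (15.8% with Mfp2-/- below and 15.1% with Mfp2-/- above). Since 27.0% of all genes were called, the counts of members describe these genes and do not set them apart from the rest.

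The libraries held 1895485 to 2826553 counts in genes in Mfp2-/- and 2340974 to 3226187 in control retinas. Hsd17b4, which encodes MFP2, had 0 to 1 counts in Mfp2-/- libraries and 20 to 78 in control libraries. The libraries differed in the share of all reads that fell outside genes. It was 27.5%, 10.8%, 15.7% and 28.0% in Mfp2-/- replicates 1 to 4, and 27.1%, 28.3%, 22.6% and 29.9% in control replicates 1 to 4. Markers of the cells of the retina moved with genotype as well. All 12 rod markers were lower in Mfp2-/- retinas, where their summed level was 769 to 1051 CPM, against 17433 to 22048 CPM in control retinas. Of 10 cone markers 6 were lower and 2 higher (1055 to 1143 CPM in Mfp2-/- and 1629 to 1868 CPM in control retinas). Of 10 Müller glia markers 6 were higher and 0 lower (3214 to 4781 CPM in Mfp2-/- and 3161 to 3964 CPM in control retinas), and all 7 tested microglia markers were higher (241 to 352 CPM in Mfp2-/- and 56.8 to 73.8 CPM in control retinas). Of 7 bipolar cell markers 6 were higher and 0 lower (1899 to 2540 CPM in Mfp2-/- and 1440 to 1694 CPM in control retinas). Of 6 ganglion cell markers 4 were higher (1961 to 2387 CPM in Mfp2-/- and 1288 to 1761 CPM in control retinas), as were 2 of 6 amacrine cell markers (1683 to 1843 CPM in Mfp2-/- and 1374 to 1433 CPM in control retinas). Of 9 tested markers of the pigment epithelium and other pigment cells none was called (460 to 791 CPM in Mfp2-/- and 277 to 510 CPM in control retinas). None of the markers in these 8 lists was at 0 in all libraries. The part of these cell types in the changes of the Usher genes was not tested.

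The promoters of the 4 genes that changed are shown because 3 of them fell together while Clrn1 went the opposite way. They are RefSeq windows on GRCm38.p6, 300 bases each, from 250 bases before to 50 after the annotated start, printed 5′ to 3′ on the strand of the gene. Capitals mark TAATCC or its reverse complement GGATTA, the core letters bound by the photoreceptor homeobox factor Crx. Both strands were searched.
Adgrv1 (chr13:81633095-81633394, minus strand): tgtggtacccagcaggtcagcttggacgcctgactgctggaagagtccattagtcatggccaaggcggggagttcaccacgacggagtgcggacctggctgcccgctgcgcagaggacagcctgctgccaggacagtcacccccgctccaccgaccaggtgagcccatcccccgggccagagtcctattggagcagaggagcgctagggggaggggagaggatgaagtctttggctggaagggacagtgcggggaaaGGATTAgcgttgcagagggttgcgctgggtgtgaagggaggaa
Pcdh15 (chr10:73821617-73821916, plus strand): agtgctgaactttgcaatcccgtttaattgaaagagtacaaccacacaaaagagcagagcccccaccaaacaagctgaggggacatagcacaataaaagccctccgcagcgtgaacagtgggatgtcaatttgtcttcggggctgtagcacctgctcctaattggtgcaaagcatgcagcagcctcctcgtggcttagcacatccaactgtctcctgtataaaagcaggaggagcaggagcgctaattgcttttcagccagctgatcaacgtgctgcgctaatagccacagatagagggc
Whrn (chr4:63495942-63496241, minus strand): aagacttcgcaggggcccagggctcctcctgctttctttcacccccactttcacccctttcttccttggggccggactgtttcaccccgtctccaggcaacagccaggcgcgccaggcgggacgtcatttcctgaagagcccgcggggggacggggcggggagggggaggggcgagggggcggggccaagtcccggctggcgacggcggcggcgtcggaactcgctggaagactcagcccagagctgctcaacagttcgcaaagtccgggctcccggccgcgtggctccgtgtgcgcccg
Clrn1 (chr3:58885163-58885462, minus strand): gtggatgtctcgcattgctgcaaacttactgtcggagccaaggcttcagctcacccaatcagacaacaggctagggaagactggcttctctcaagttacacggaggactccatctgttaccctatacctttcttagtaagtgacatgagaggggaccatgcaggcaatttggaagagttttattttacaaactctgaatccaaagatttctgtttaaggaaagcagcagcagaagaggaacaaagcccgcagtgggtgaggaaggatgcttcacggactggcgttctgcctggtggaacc
The motif was found 1 time, at the 258th base of the Adgrv1 window, and in no window of Pcdh15, Whrn or Clrn1. Windows of 8 of the 9 Usher genes were in the table (9 windows, as Myo7a has 2 annotated starts), and the Adgrv1 window was the only 1 of them with the motif. Among all 32851 windows 7.06% held it. A match is only a match of letters, and these genes have further annotated starts that were not searched.

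**Figure D1:**
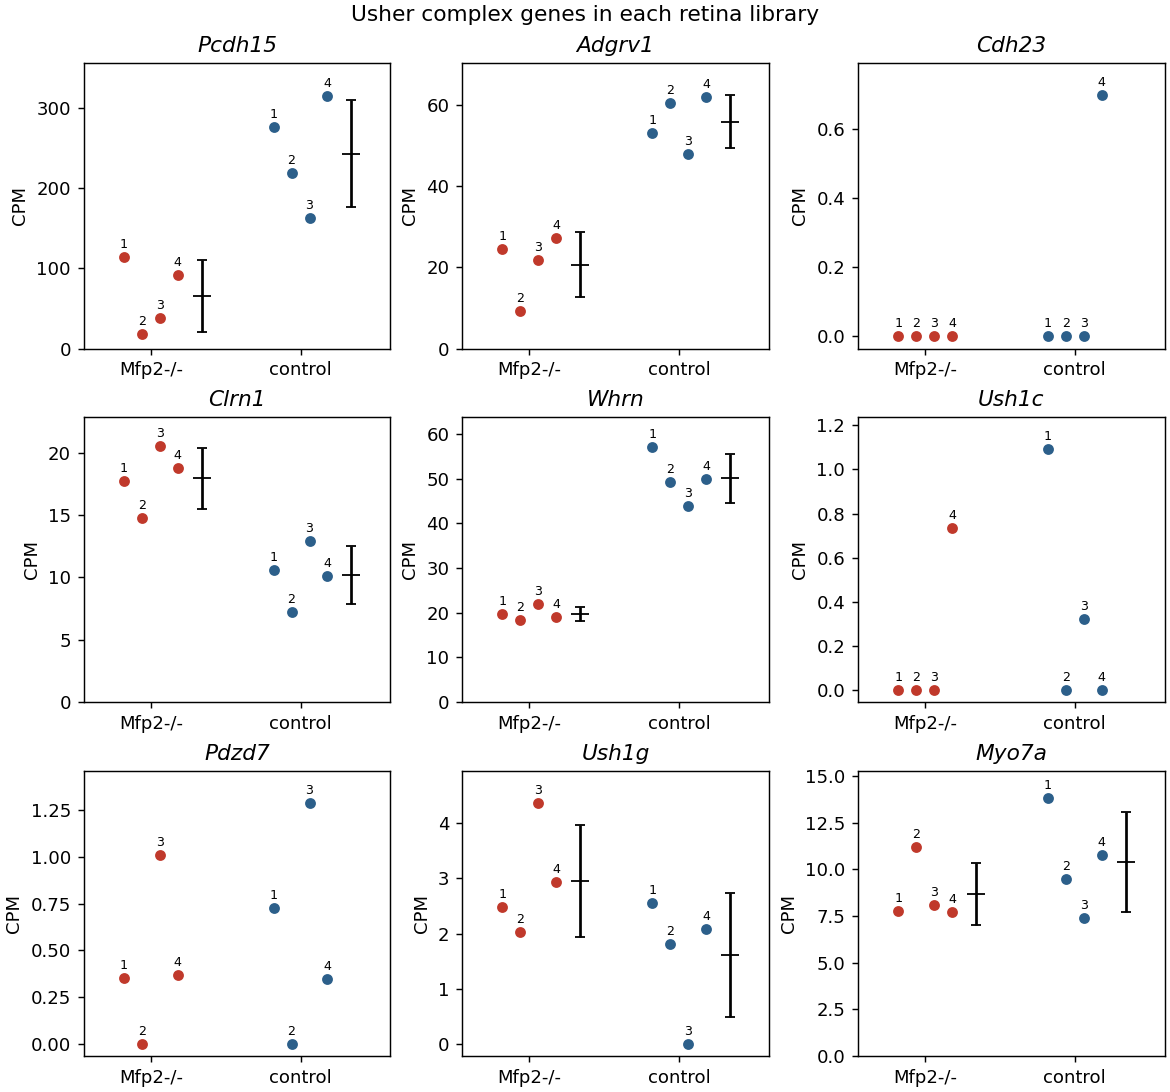
CPM of the 9 Usher genes in each library; each point is 1 mouse with its replicate number, the y axis is linear and differs between panels, and black bars give mean and SD over the 4 mice of a group (left out for Cdh23, Ush1c and Pdzd7, which had 3 counts or fewer in most libraries). The Mfp2-/- libraries lie below the control libraries for Pcdh15, Adgrv1 and Whrn, above them for Clrn1, and among them for the other genes.

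Among the adhesion molecules at the cell surface, Pcdh15 was the most abundant Usher gene of the retina. It encodes protocadherin 15, the lower part of the tip link, and lies on chromosome 10 (73099342 to 74649737 of GRCm38). Pcdh15 stood at 113.9, 17.8, 37.6 and 91.9 CPM in Mfp2-/- replicates 1 to 4, against 275.9, 218.9, 162.9 and 314.9 CPM in control replicates 1 to 4. Every Mfp2-/- library lay below every control library, although replicates 2 and 3 of the mutants were far lower than replicates 1 and 4. The means were 65.3 ± 45.1 CPM in Mfp2-/- and 243.1 ± 66.4 CPM in control retinas (SD, n = 4 mice per group), a log2 fold change of -1.89 with a standard error of 0.46 (edgeR adjusted p = 0.0127). In control retinas this level was above that of 95.0% of the genes tested.

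The size of the Pcdh15 decrease depended on Mfp2-/- replicates 2 and 3. Mfp2-/- replicates 2 and 3, with 10.8% and 15.7% of reads outside genes, held the lowest Pcdh15 levels of the mutants, and control replicate 3, with 22.6%, held the lowest of the controls. Without Mfp2-/- replicates 2 and 3 the log2 fold change was -1.24 with a standard error of 0.22 (edgeR adjusted p = 8.7e-04), a 2.37-fold decrease where all libraries gave a 3.70-fold decrease. With the share of reads outside genes as a covariate, which was tried only once the values were known, it was -1.31 with a standard error of 0.15 (edgeR adjusted p = 2.7e-06). The decrease thus passed the test in each of these fits, at a smaller size. Leaving out the 2 mutants lowest in Pcdh15 had to shrink it, and what set their low level was not tested.

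**Figure D2:**
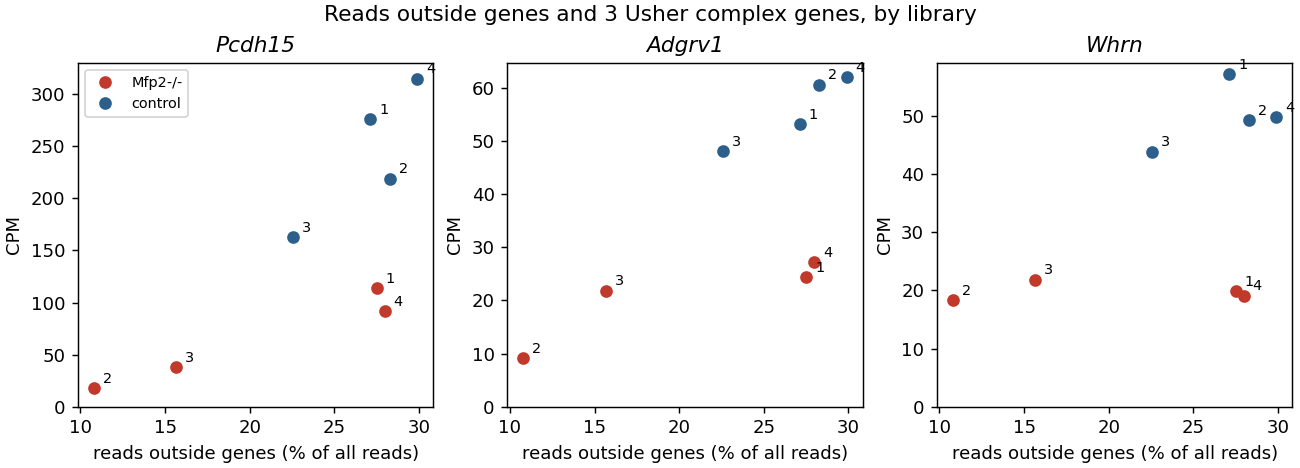
CPM of Pcdh15, Adgrv1 and Whrn (linear y axes) against the share of all reads of a library that fell outside genes (x axis, %); each point is 1 library with its replicate number, Mfp2-/- in red and control in blue. Pcdh15 ranges from 17.8 to 113.9 CPM among Mfp2-/- libraries whereas Whrn ranges only from 18.3 to 21.9 CPM over the same libraries.

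Adgrv1 encodes the very large adhesion G protein-coupled receptor of the ankle links and of the periciliary membrane (chromosome 13, 81095068 to 81633154 of GRCm38). Its 95 merged exons cover 24878 bases, more than those of any other Usher gene measured here. Adgrv1 was found at 24.4, 9.15, 21.9 and 27.2 CPM in Mfp2-/- replicates 1 to 4, against 53.1, 60.6, 48.1 and 62.0 CPM in control replicates 1 to 4. The groups did not overlap, and Mfp2-/- replicate 2 was the lowest library. The mean was 20.7 ± 7.98 CPM in Mfp2-/- and 56.0 ± 6.55 CPM in control retinas (SD, n = 4 mice a group, log2 fold change -1.41, standard error 0.26, edgeR adjusted p = 0.0024). Like Pcdh15 and Whrn, Adgrv1 was lowest within each group in the library with the fewest reads outside genes. With that share as a covariate its log2 fold change was -1.10 (edgeR adjusted p = 1.8e-04).

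Cdh23, the upper part of the tip link (chromosome 10, 60302748 to 60696490 of GRCm38), was all but undetected. It had 0 counts in each of the 4 Mfp2-/- libraries, which allows up to 1.01 to 1.52 CPM per library (3 counts), and 2 counts in control replicate 4 with 0 in the other control libraries. Both groups were at or under this limit, so no difference could have been seen at this depth. The partner with which Cdh23 pairs in hair cells, Pcdh15, was read 2651 times in the same control libraries.

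Clrn1 encodes clarin-1, a small membrane-spanning protein mutated in Usher syndrome type III (chromosome 3, 58844028 to 58885340 of GRCm38). In the mouse retina it has been assigned mainly to Müller glia. Clrn1 was the only Usher gene called higher in Mfp2-/- retinas, with 17.7, 14.7, 20.5 and 18.8 CPM in Mfp2-/- replicates 1 to 4, against 10.6, 7.24, 12.9 and 10.1 CPM in control replicates 1 to 4. All mutants lay above all controls. The mean was 17.9 ± 2.42 CPM in Mfp2-/- and 10.2 ± 2.32 CPM in control retinas (SD, n = 4 mice per group), a 1.75-fold difference (log2 fold change 0.80, standard error 0.21, edgeR adjusted p = 0.0187). The call did not hold without Mfp2-/- replicate 3 (adjusted p = 0.0593) or without control replicate 2, the Mfp2+/- mouse, which had the lowest value (log2 fold change 0.67, adjusted p = 0.0520). As given above, 6 of 10 Müller glia markers (median log2 fold change of the list 0.95), 6 of 7 bipolar (0.76), 4 of 6 ganglion (0.53), 2 of 6 amacrine (0.38) and all 7 tested microglia markers (2.01) also rose. The part of any of these cells in the Clrn1 level was not tested.

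Among the scaffolds, only Whrn had enough reads to be tested. It encodes whirlin, a PDZ protein that holds Adgrv1 at the periciliary membrane (chromosome 4, 63414910 to 63495991 of GRCm38). Whrn measured 19.8, 18.3, 21.9 and 19.1 CPM in Mfp2-/- replicates 1 to 4, against 57.1, 49.3, 43.9 and 49.8 CPM in control replicates 1 to 4. The 4 mutants lay within 1.19-fold of one another and far below the lowest control. As with Pcdh15 and Adgrv1, the lowest library of each group was that with the fewest reads outside genes. The mean was 19.8 ± 1.52 CPM in Mfp2-/- and 50.0 ± 5.45 CPM in control retinas (SD, n = 4 mice per group), a 2.52-fold decrease (log2 fold change -1.33, standard error 0.14, edgeR adjusted p = 6.1e-05). Its log2 fold change was -1.36 without Mfp2-/- replicates 2 and 3 and -1.31 with the share of reads outside genes as a covariate, so that it hardly moved where Pcdh15 did.

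The remaining scaffolds were close to the limit of detection. Ush1g, which encodes the ankyrin-repeat scaffold SANS (chromosome 11, 115315192 to 115322041), had 7, 4, 13 and 8 counts in Mfp2-/- replicates 1 to 4, against 7, 4, 0 and 6 in control replicates 1 to 4. This came to 2.96 ± 1.01 CPM in Mfp2-/- and 1.61 ± 1.12 CPM in control retinas (SD, n = 4 mice a group, two-sided exact permutation p = 0.143). The groups overlapped, and the ratio of the summed counts, 1.96, lay within 1.06 to 3.77 (95% exact interval), which reflects counting error alone. Ush1c, which encodes the PDZ scaffold harmonin (chromosome 7, 46195350 to 46238503), had 2 counts over all Mfp2-/- libraries and 4 over all control libraries (ratio after scaling 0.52, 95% exact interval 0.047 to 3.64). Pdzd7, a PDZ protein related to harmonin and whirlin (chromosome 19, 45026906 to 45045717), had 5 counts in Mfp2-/- and 7 in control libraries (ratio 0.74, 95% exact interval 0.19 to 2.72). Both intervals reach from a decrease to an increase, and no difference was detectable at this depth. Pdzd7 shares 206 exon bases with Lzts2 on the opposite strand, and whether reads were counted by strand is not given in the sources used here, so those from these bases cannot be told apart.

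Myo7a encodes myosin VIIa, the actin motor of the complex, which in the eye also carries melanosomes in the pigment epithelium (chromosome 7, 98051060 to 98119524). It was measured at 7.79, 11.2, 8.07 and 7.72 CPM in Mfp2-/- replicates 1 to 4, against 13.8, 9.50, 7.42 and 10.8 CPM in control replicates 1 to 4. The groups overlapped, with control replicate 3 the lowest of all libraries. The mean was 8.69 ± 1.67 CPM in Mfp2-/- and 10.4 ± 2.68 CPM in control retinas (SD, n = 4 mice a group, log2 fold change -0.27, standard error 0.26, edgeR adjusted p = 0.463). The neural retina was separated from the pigment epithelium, whose markers were still read at the summed levels given above, and how much Myo7a came from such cells was not tested.

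**Figure D3:**
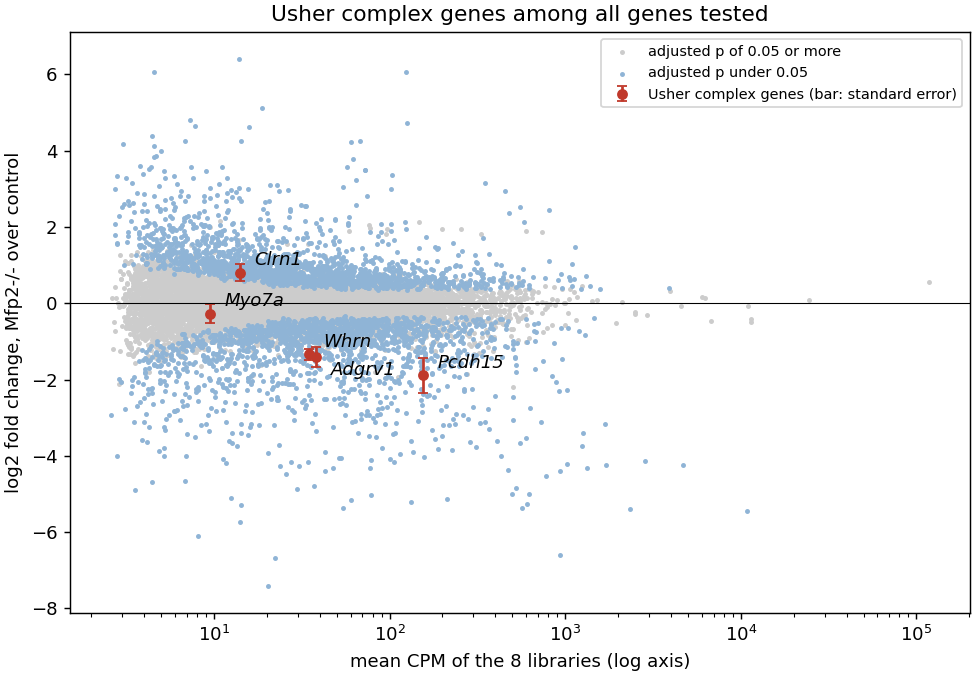
Log2 fold change of Mfp2-/- over control (y axis) against the mean CPM of the 8 libraries (x axis, log scale) for the 12516 genes tested; each small point is a gene, drawn in blue if called (adjusted p under 0.05), and the red points are the 5 tested Usher genes with their standard errors. Pcdh15, Adgrv1 and Whrn lie between -1.89 and -1.33, Myo7a at -0.27 and Clrn1 at 0.80.

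The order of the levels differed between the groups. In Mfp2-/- retinas Pcdh15 (65.3 CPM) had the highest mean but overlapped with Adgrv1, Whrn and Clrn1 (20.7, 19.8 and 17.9 CPM), which overlapped with one another, and Myo7a (8.69 CPM) overlapped with Adgrv1 alone among these. In control retinas Pcdh15 (243.1 CPM) was above Adgrv1 and Whrn (56.0 and 50.0 CPM), whose libraries overlapped. These were above Myo7a and Clrn1 (10.4 and 10.2 CPM), which overlapped too, and Ush1g, Pdzd7, Ush1c and Cdh23 had 1.61 CPM or less. The Mfp2+/- mouse among the controls lay within the range of the 3 Mfp2+/+ mice for Pcdh15, Adgrv1, Whrn and Myo7a, and below it for Clrn1. The summed level of the 9 genes was 186.5, 73.2, 115.3 and 168.8 CPM in Mfp2-/- replicates 1 to 4, against 414.9, 347.4, 276.7 and 450.8 CPM in control replicates 1 to 4. This was a 2.74-fold lower mean (two-sided exact permutation p = 0.0286, which no design of 4 against 4 mice can go below). Without Pcdh15 the sum was 70.6 ± 10.4 CPM in Mfp2-/- and 129.3 ± 11.2 CPM in control retinas, a 1.83-fold lower mean (SD, n = 4 mice a group, two-sided exact permutation p = 0.0286). Pcdh15 alone made up 58.9% to 69.9% of the members' counts in control libraries, and Adgrv1 and Whrn were called lower on their own. Both sums therefore repeat the calls of single genes and are no separate evidence on the complex.

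Ratios between 2 genes of the same library do not depend on how libraries are scaled. They were computed for the 10 pairs of tested Usher genes, after adding 0.5 to each count, and their log2 values were compared with the exact permutation test (two-sided), adjusted over the 10 pairs. In 6 pairs the groups did not overlap, each with an exact permutation p of 0.0286, the smallest possible, and an adjusted p of 0.0476. All 10 ratios are built from the same 5 genes, so they restate the calls of single genes and are no separate support for them. Of these, Whrn and Clrn1 had the smallest spread among the Mfp2-/- libraries (SD 0.12 on the log2 scale). In Mfp2-/- replicates 1 to 4 there were 1.12, 1.24, 1.07 and 1.02 Whrn reads per Clrn1 read, against 5.34, 6.64, 3.37 and 4.86 in control replicates 1 to 4. The 2 genes were thus read about equally often in each mutant, whereas each control library held at least 3.37 Whrn reads per Clrn1 read. The mutant libraries held only 36 to 65 Whrn and 29 to 61 Clrn1 counts, and the pair was picked from 10 for its spread. The small spread is therefore not read as a fixed ratio. On the log2 scale the ratio was lower by 2.15 in Mfp2-/- retinas, as the means were 0.15 ± 0.12 in Mfp2-/- and 2.30 ± 0.41 in control retinas (SD, n = 4 mice per group).

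Other pairs that differed set Adgrv1 or Pcdh15 against Clrn1 (mean log2 ratio 0.10 in Mfp2-/- and 2.46 in control for Adgrv1, 1.52 in Mfp2-/- and 4.54 in control for Pcdh15). Each of the genes that fell also differed from Myo7a. There were 0.40, 0.62, 0.37 and 0.41 Myo7a reads per Whrn read in Mfp2-/- replicates 1 to 4, against 0.24, 0.20, 0.17 and 0.22 in control replicates 1 to 4. The log2 ratio of Adgrv1 to Myo7a was 1.14 ± 0.96 in Mfp2-/- and 2.44 ± 0.35 in control retinas, and that of Pcdh15 to Myo7a was 2.56 ± 1.46 in Mfp2-/- and 4.52 ± 0.23 in control retinas (SD, n = 4 mice per group). Relative to Myo7a, whose own level did not pass the test, Pcdh15, Adgrv1 and Whrn were thus each read less often in Mfp2-/- than in control retinas.

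The genes that fell could not be told apart by size. Adgrv1 and Whrn, partners at the periciliary membrane, were read at a ratio of 1.23, 0.51, 1.00 and 1.42 in Mfp2-/- replicates 1 to 4, against 0.93, 1.23, 1.10 and 1.24 in control replicates 1 to 4. Mfp2-/- replicate 2 lay below and replicate 4 above all controls, and the mean log2 ratio differed by -0.20 (exact permutation test, two-sided, p = 0.771, adjusted p = 0.771). Pcdh15 and Whrn overlapped as well (log2 ratio -0.040 to 2.51 in Mfp2-/- and 1.89 to 2.66 in control retinas, exact permutation p = 0.286, adjusted p = 0.317). So did Adgrv1 and Pcdh15 (-2.21 to -0.78 in Mfp2-/- and -2.37 to -1.76 in control retinas, exact permutation p = 0.114, adjusted p = 0.143). The width of these ranges means that unequal decreases within them would not have been seen. Myo7a and Clrn1 also missed the threshold (exact permutation p = 0.0571, adjusted p = 0.0816).

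**Figure D4:**
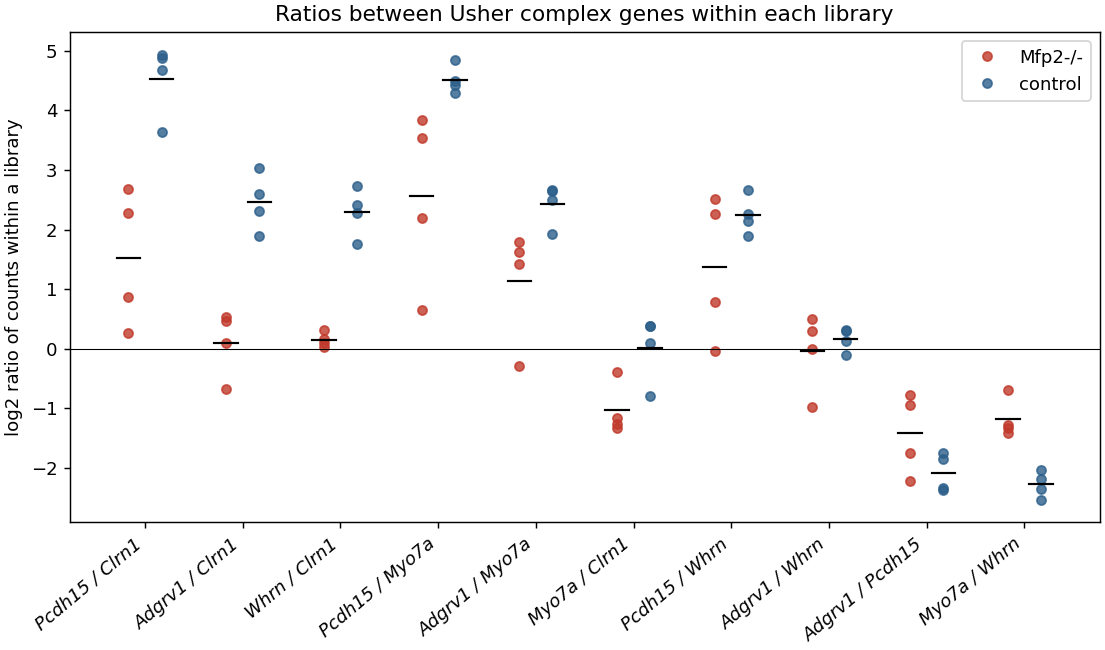
Log2 ratio of the counts of 2 Usher genes within a library (y axis) for the 10 pairs of tested genes, ordered by the difference between the groups; each point is 1 library, Mfp2-/- left and control right of each tick, and the black bars are the means. The 4 Mfp2-/- libraries lie at 0.028 to 0.31 for Whrn over Clrn1, below the 4 control libraries at 1.75 to 2.73, whereas the groups overlap for Adgrv1 over Whrn.

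Around the complex, 6 further genes of Usher or Usher-like disease were tested. They changed in both directions, with 1 higher, 2 lower and a median log2 fold change of 0.029. Over all genes tested 13.8% were called higher and 13.2% lower, and neither this list nor those below were tested as a set. Cib2, a calcium-binding protein of the hair bundle, was at 12.4, 16.8, 14.1 and 13.6 CPM in Mfp2-/- replicates 1 to 4, against 6.91, 8.14, 6.77 and 4.88 CPM in control replicates 1 to 4. All mutants were above all controls (log2 fold change 1.09, standard error 0.23, edgeR adjusted p = 0.0056). Cep250, a centrosomal protein, fell to a mean of 22.2 CPM in Mfp2-/-, against 37.3 CPM in control retinas, without overlap (log2 fold change -0.74, standard error 0.16, edgeR adjusted p = 0.0072). The lysosomal sulfatase gene Arsg fell to 5.54 ± 0.98 CPM in Mfp2-/-, against 11.2 ± 2.00 CPM in control retinas (log2 fold change -1.02, edgeR adjusted p = 0.0122). Abhd12, a lipid hydrolase gene mutated in an Usher-like neuropathy, did not pass (log2 fold change 0.28, edgeR adjusted p = 0.319), and the sign of its change turned without Mfp2-/- replicates 2 and 3 (log2 fold change -0.074).

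Of 15 tested genes whose products are known to bind Usher proteins, 5 fell and 0 rose. The shares over all genes tested were 13.2% lower and 13.8% higher, and the median log2 fold change of the list was 0.064. Slc4a7, a bicarbonate transporter that binds harmonin and whose loss in mice impairs sight and hearing, had 84.2, 30.0, 42.4 and 67.7 CPM in Mfp2-/- replicates 1 to 4, against 437.8, 451.9, 388.3 and 403.0 CPM in control replicates 1 to 4. The groups were far apart (log2 fold change -2.90, standard error 0.28, edgeR adjusted p = 3.1e-05). Lca5, which encodes lebercilin of the connecting cilium, fell to 21.0 ± 2.94 CPM in Mfp2-/-, against 99.7 ± 5.44 CPM in control retinas (SD, n = 4 mice a group, log2 fold change -2.24, edgeR adjusted p = 9.6e-07). Eps8, an actin regulator of stereocilia tips, and Myrip, which links myosin VIIa to Rab27a, fell less, with log2 fold changes of -0.81 (edgeR adjusted p = 0.0019) and -0.98 (edgeR adjusted p = 0.0108). For Myrip the groups overlapped, with Mfp2-/- replicate 2 at 27.9 CPM and control replicate 1 at 26.9 CPM. Shroom2, named after its value was seen, was the last to pass (log2 fold change -0.49, edgeR adjusted p = 0.0455) and lost its call without any 1 of the 8 libraries (adjusted p 0.0526 to 0.118). Without Mfp2-/- replicates 2 and 3, and also with the share of reads outside genes as a covariate, 4 genes of this list fell and 2 rose.

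Paralogues of the Usher genes and genes of the matching complex in intestinal microvilli were nearly silent in the retina, as only 2 of 13 genes had enough reads to be tested and 4 (Clrn2, Clrn3, Cib3 and Myo3a) were at 0 in all libraries. Cdhr1, a cadherin of the base of the outer segment, was the strong exception. It had 55.2, 49.3, 47.4 and 46.3 CPM in Mfp2-/- replicates 1 to 4, against 458.6, 369.1, 404.5 and 404.8 CPM in control replicates 1 to 4 (log2 fold change -3.04, standard error 0.14, edgeR adjusted p = 1.6e-07). The calcium-binding gene Cib1 was called higher (log2 fold change 1.06, standard error 0.33, edgeR adjusted p = 0.0374). It lost this call when Mfp2-/- replicate 2 or 3, or any of the 4 control libraries, was left out, and without both of these mutants its log2 fold change was 0.48 (adjusted p = 0.327).

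Of the hair bundle transduction genes, 3 of 11 were tested and none was called by edgeR. Triobp had a log2 fold change of 0.31 (edgeR adjusted p = 0.168), Lhfpl5 of 0.59 (adjusted p = 0.363) and Tmie of 0.18 (adjusted p = 0.720), and the sign of Tmie turned without Mfp2-/- replicate 2 (log2 fold change -0.070).

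Genes of actin-based protrusions split in 2 directions, with 3 of 9 tested genes higher and 2 lower. The shares over all genes tested were 13.8% higher and 13.2% lower. Fscn2, the actin-bundling fascin of photoreceptors, had 4.25, 2.03, 2.69 and 1.10 CPM in Mfp2-/- replicates 1 to 4, against 69.1, 63.8, 80.6 and 73.5 CPM in control replicates 1 to 4 (log2 fold change -4.78, standard error 0.26, edgeR adjusted p = 4.5e-07). Prom1, a membrane protein of nascent outer segment discs, fell to a mean of 67.8 CPM in Mfp2-/-, against 663.8 CPM in control retinas (log2 fold change -3.29, standard error 0.20, edgeR adjusted p = 7.0e-07). The genes that rose encode linkers of actin to the membrane: Msn (log2 fold change 2.11, edgeR adjusted p = 1.1e-05), Ezr (log2 fold change 1.27, edgeR adjusted p = 5.7e-04) and, named after its value was seen, Slc9a3r1 (log2 fold change 1.38, edgeR adjusted p = 0.0039). These proteins are abundant in glia and the pigment epithelium as well, and the cells in which these genes rose were not identified. Rdx and Slc9a3r2, further linkers of the list that were named after their values were seen, were not called. Their log2 fold changes were -0.070 for Rdx (edgeR adjusted p = 0.824) and 0.071 for Slc9a3r2 (edgeR adjusted p = 0.808).

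**Figure D5:**
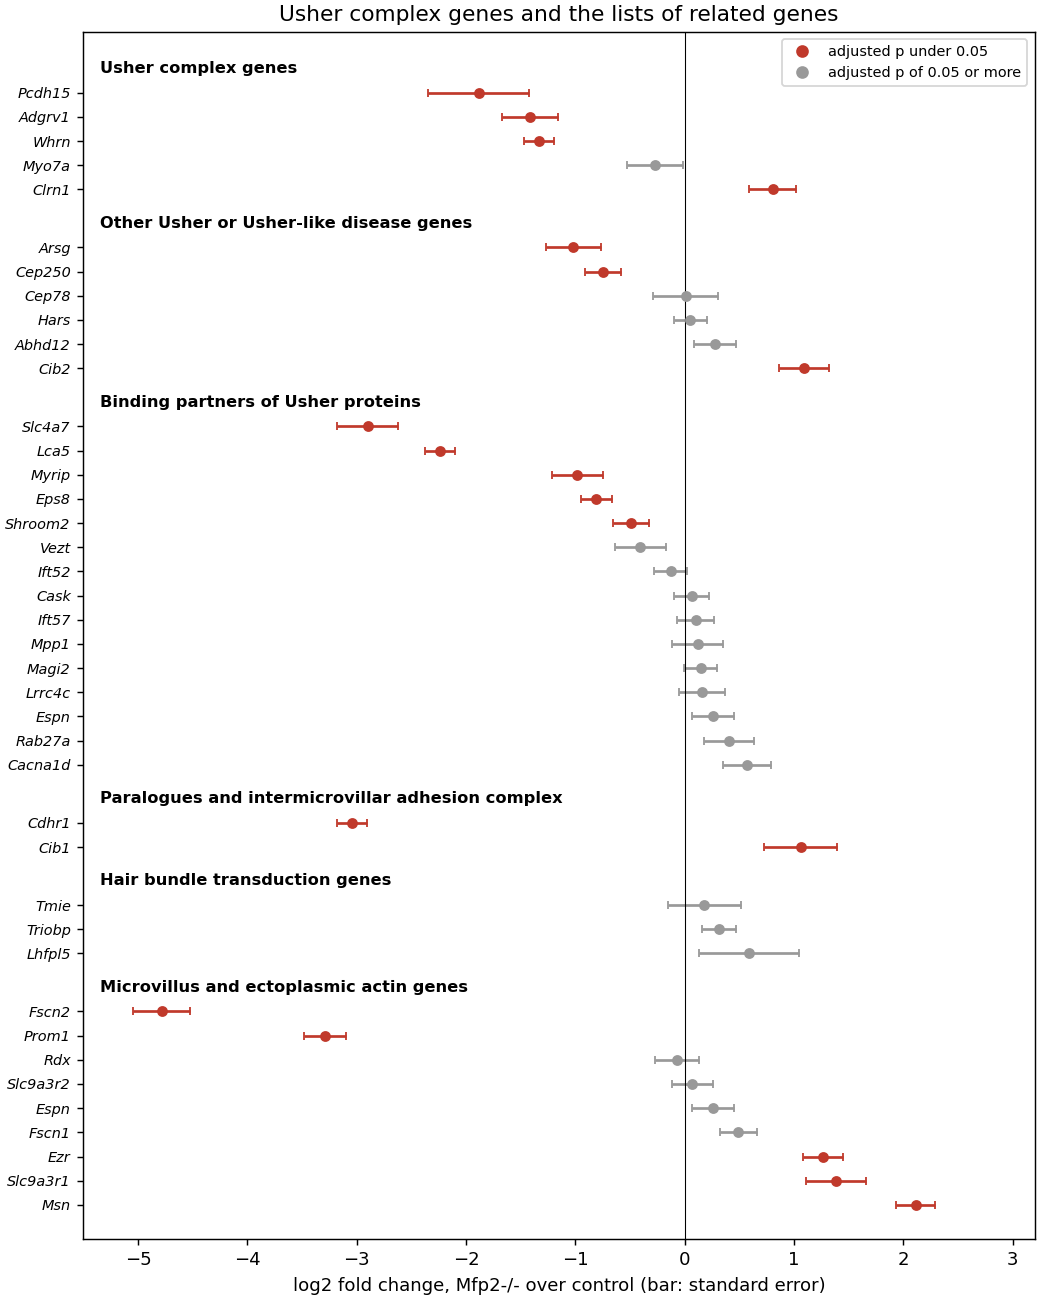
Log2 fold change of Mfp2-/- over control (x axis, with the standard error as a bar) for the 5 tested Usher genes and the tested genes of 5 lists of related genes; each point is 1 gene, red if called and grey if not. Fscn2 (-4.78), Prom1 (-3.29), Cdhr1 (-3.04) and Slc4a7 (-2.90) lie further to the left than any Usher gene, and Msn (2.11) lies furthest to the right.

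Genes with profiles close to those of the called Usher genes were sought among 9302 tested genes with at least 10 CPM, as those with the smallest root mean square difference in centred log2 CPM over the 8 libraries. This is a description without a test. For Whrn they were St6galnac2, Stx3 and Gnaz, at differences of 0.085 to 0.11. Stx3 encodes the syntaxin of photoreceptor ribbon synapses. For Adgrv1 they were Ccdc15, Pola1 and Thrb (0.10 to 0.16), the last encoding a thyroid hormone receptor of cones. For Pcdh15 the nearest genes were further away, namely Hook3, Lztfl1 and Fsd1l (0.23 to 0.27), and for Clrn1 they were Bend5, Rhoq and Ddah1 (0.12).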

How the data were processed

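Neural retinas of 4 Mfp2-/- and 4 control mice were sequenced with the QuantSeq 3′ kit (single-end reads). The deposited values are raw counts of reads per gene symbol, for which the authors' processing notes list FastQC 0.11.7, HISAT2 (no version), SAMtools 1.5, HTSeq 2.7.14 and mm10. For the annotation release and the strand setting the sources used here give nothing. Of all reads, 59.2% to 66.9% stood in rows that name no gene (unaligned, not unique, ambiguous or outside genes) and were left out. A series-wide table held the same counts (0 different values over 21129 shared symbols).

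The test was that of edgeR 4.0.16 under R 4.3.3 (filterByExpr, TMM, quasi-likelihood test, all 8 libraries, no covariate). Log2 CPM used a prior count of 2. Alternatives were other scalings and filters, DESeq2 1.42.0, limma 3.58.1 (the tool of the study), a replicate block, left-out libraries and, added later, the share of reads outside genes as a covariate. Replicates of a group differed by more than sampling noise. The scripts were tested on simulated counts. The members and lists were chosen with earlier results of these data known. Named genes were the 9 members, per list the 4 genes with the lowest adjusted p, and the 3 genes nearest in profile to each called member. Coordinates are those of GENCODE M21 on GRCm38, and promoters are from RefSeq. Since counts are reads and not molecules, intervals hold for counting error alone.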

Additional observations from a re-analysis of the deposited data

Results flagged for a closer look

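In groups of 4 libraries a value was marked where its gap to the nearest library was too large a part of the group's range by Dixon's critical value, which chance does in about 1 in 20 groups. Of 76 groups of 38 named genes, 5 had such a value. Myo7a was at 11.2 CPM in Mfp2-/- replicate 2, against 7.72 to 8.07 CPM in the other Mfp2-/- libraries. Ush1c was at 0.74 CPM in Mfp2-/- replicate 4 and Cdh23 at 0.70 CPM in control replicate 4, each 2 counts where the other libraries of the group had 0. With all other libraries at 0 any count is marked, so the rate of 1 in 20 does not hold for these genes. Msn was at 27.1 CPM in control replicate 2, the Mfp2+/- mouse, against 19.7 to 20.4 CPM in the Mfp2+/+ mice. Lztfl1, a gene near Pcdh15 in profile, was at 61.3 CPM in control replicate 3, against 107.7 to 115.8 CPM in the other controls. This library also had the fewest reads outside genes among the controls. Lztfl1 was picked for its likeness to Pcdh15 over these same libraries, and Pcdh15 too was lowest of the controls in replicate 3. The low value of Lztfl1 there is therefore no separate observation.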

How the results depend on the processing

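Pcdh15, Adgrv1 and Whrn kept their decrease and their call under all 20 alternatives, with log2 fold changes of -2.28 to -1.24, -1.55 to -1.10 and -1.39 to -1.21, and Myo7a stayed uncalled under all 20 (-0.42 to -0.11). Clrn1 stayed higher under all 20 (0.67 to 0.95, adjusted p 0.0084 to 0.0593) and kept its call under 18. With single libraries left out, 3 members were lower each time, and 0 (without Mfp2-/- replicate 3 or control replicate 2) to 1 higher. The genes called numbered 2474 to 3524 with single libraries left out. Signs turned for 2 related genes that were not called, Abhd12 (-0.074 without Mfp2-/- replicates 2 and 3, -0.043 with reads outside genes as a covariate) and Tmie (-0.070, without Mfp2-/- replicate 2, to 0.31 with single libraries left out). The share of called genes that were higher was 51.2% after TMM scaling, against 64.2% after upper-quartile scaling and 65.2% on plain totals, and over the scalings the all-gene median lay between -0.0056 and 0.12. The directions of the 5 tested members were the same in each of these. With the replicate number as a block, 1355 genes were higher and 1490 lower, and the log2 fold changes were -2.12 for Pcdh15, -1.46 for Adgrv1, -1.33 for Whrn and 0.82 for Clrn1, all called. Deviations of same-numbered libraries correlated at -0.16 to 0.25, so the numbers were not taken as pairs. Cdh23, Ush1c, Ush1g and Pdzd7 did not pass the filter for low counts. Fitted without a filter, none of them was called (edgeR adjusted p = 0.391, 0.717, 0.388 and 0.820), at counts too low to show that they did not change.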
